A study of Mus musculus with 12 samples.

Results

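The immunoglobulin genes of mouse cortical bone were followed over 12 RNA sequencing libraries. The members were the rows of the deposited normalized table whose gene name marks a heavy, kappa or lambda V segment, a heavy or light constant gene, or the joining chain Jchain. These were 178 of 17408 rows: 86 heavy V segments (Ighv), 77 kappa V segments (Igkv), 3 lambda V segments (Iglv), 7 heavy constant genes, 4 light constant genes and Jchain. Within that table the choice used gene names alone. The table itself holds the 17408 genes with a mean count above 10, so 183 further genes of the same name pattern, at mean counts of up to 9.92, were left out, and Ighv3-4 entered mainly through 523 counts in 1 library.

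Cells of the B lineage build each antibody chain by joining 1 V segment to short D and J segments, or to a J segment alone in light chains, and splicing the result to a constant gene. Each B cell clone keeps its own choice of V segments, so V transcripts in a tissue sum over the clones in it, and plasma cells, the antibody-secreting end stage that settles in bone marrow, hold far more of this RNA per cell than resting B cells. Heavy constant genes set the antibody class: Ighm and Ighd the IgM and IgD of unswitched B cells, Ighg1, Ighg2b, Ighg2c and Ighg3 the IgG classes, and Igha the IgA of mucosal responses.

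The RNA came from femoral shafts, spun to remove marrow, of male mice aged 12 weeks. The mice lacked the peroxide-degrading enzyme catalase (Cat -/-, here KO) or were Cat +/+ (here WT). Over 4 days they were gavaged with ethanol at 3, 3, 4 and 4.5 g per kg of body weight, from a 31.5% (v/v) solution, or with the same volume of PBS, and they were killed 6 hours after the last dose. The groups were KO ethanol (libraries 4, 5 and 6), KO PBS (libraries 1, 2 and 3), WT ethanol (libraries 10, 11 and 12) and WT PBS (libraries 7, 8 and 9). Each library pooled the RNA of 2 mice, so every p-value measures the spread between pools.

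The bases at which V segments differ are what lets a read be assigned to one of them. Of the 165 V members with a coding sequence in GENCODE, 30 were at least 97% identical to their closest segment and 32 were under 90% identical to it, with a median of 94.87%. Reads from the first kind could be split between copies in ways that the sources used here do not state, so single values of near-identical segments are uncertain. The stretches below show segments on which the results turn, as 90 coding bases of the GRCm38 reference, 5′ to 3′ on the minus strand, with capitals at the bases that differ within a pair. Ighv3-4 (chr12:114253617-114254051), the segment with the sharpest single-library peak, is shown with its closest relative Ighv3-6 (chr12:114288152-114288582); the pair is 87.43% identical over the coding sequence.
Ighv3-4: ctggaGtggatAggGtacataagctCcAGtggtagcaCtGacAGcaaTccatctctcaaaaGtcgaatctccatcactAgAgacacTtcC
Ighv3-6: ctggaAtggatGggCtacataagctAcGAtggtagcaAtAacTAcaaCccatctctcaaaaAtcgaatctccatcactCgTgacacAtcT

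Igkv8-19 (chr6:70340876-70341453), the leading kappa segment of KO ethanol library 6, is shown with Igkv8-28 (chr6:70143593-70144166), which is 97.53% identical to it. The stretch holds 4 differences.
Igkv8-19: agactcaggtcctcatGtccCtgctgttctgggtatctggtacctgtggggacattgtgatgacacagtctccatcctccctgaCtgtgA
Igkv8-28: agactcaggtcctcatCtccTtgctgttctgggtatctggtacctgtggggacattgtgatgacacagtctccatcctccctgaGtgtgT

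Igkv8-16 (chr6:70386672-70387252) peaked in that library too, and is 80.55% identical to Igkv8-19. Another stretch of the Igkv8-19 and Igkv8-16 pair holds 24 differences.
Igkv8-19: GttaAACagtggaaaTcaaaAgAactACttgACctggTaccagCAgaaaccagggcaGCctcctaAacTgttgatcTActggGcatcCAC
Igkv8-16: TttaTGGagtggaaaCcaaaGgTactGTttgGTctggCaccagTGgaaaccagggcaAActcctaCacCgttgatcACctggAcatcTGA

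Ighv1-54 (chr12:115193675-115194134), the V segment called in wild type, is shown with its closest relative Ighv1-63 (chr12:115495625-115496058), which is 92.88% identical to it.
Ighv1-54: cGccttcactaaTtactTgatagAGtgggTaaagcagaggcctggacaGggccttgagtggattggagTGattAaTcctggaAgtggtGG
Ighv1-63: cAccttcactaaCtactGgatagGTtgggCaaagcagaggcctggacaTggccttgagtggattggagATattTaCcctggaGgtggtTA

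Library totals ran from 19950222 to 28789308 counts. Cat was 69.1, 74.2 and 71.6 CPM in KO ethanol, 70.1, 66.0 and 66.5 CPM in KO PBS, 172, 164 and 144 CPM in WT ethanol and 128, 152 and 175 CPM in WT PBS libraries: lower in every KO library, yet still counted. CPM is the count relative to the scaled library total. Over the 12 libraries, 10 neutrophil genes summed to 23540 to 41890 CPM and 10 erythroid genes to 10800 to 20980 CPM. Neutrophil and erythroid RNA was thus present in every library after the spin. The part of remaining marrow in the immunoglobulin values was not tested. A list of 12 skeletal muscle genes summed to 34720 CPM in WT ethanol library 12 and to 30100 and 32650 CPM in WT PBS libraries 8 and 9, against 1159 to 16990 CPM in the other libraries. The calls, and the wild-type ethanol differences of Iglc1, Iglv1 and Igkv6-25, are given without them too. That fit leaves library 7 alone for WT PBS and libraries 10 and 11 for WT ethanol. A call lost in it can stem from the fewer libraries alone.

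Constant gene RNA was dominated by IgM and kappa in all groups, and no group stood apart in the total. Igkc, the constant gene of kappa light chains, was the highest member per length, at 721.5 to 1385 CPM per kb of exon. Ighm followed at 212 to 841 CPM per kb, and Ighg2b (68.6 to 175) and Igha (44.9 to 138) came next among the heavy genes. Ighg3 was lowest at 0.674 to 15.2 CPM per kb. Ordered by mean CPM per kb, the others were Iglc1 (43.1 to 96.7), Ighg2c (16.6 to 98.1), Jchain (31.4 to 84.5), Iglc2 (24.9 to 72.6), Ighd (26.8 to 60.4), Iglc3 (27.7 to 55.4) and Ighg1 (5.22 to 60.3). Neighbours in that order overlapped in range, except Ighm and Ighg2b. Ighe, the IgE constant gene, was no member, with 30 counts over all libraries.

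**Figure D1:**
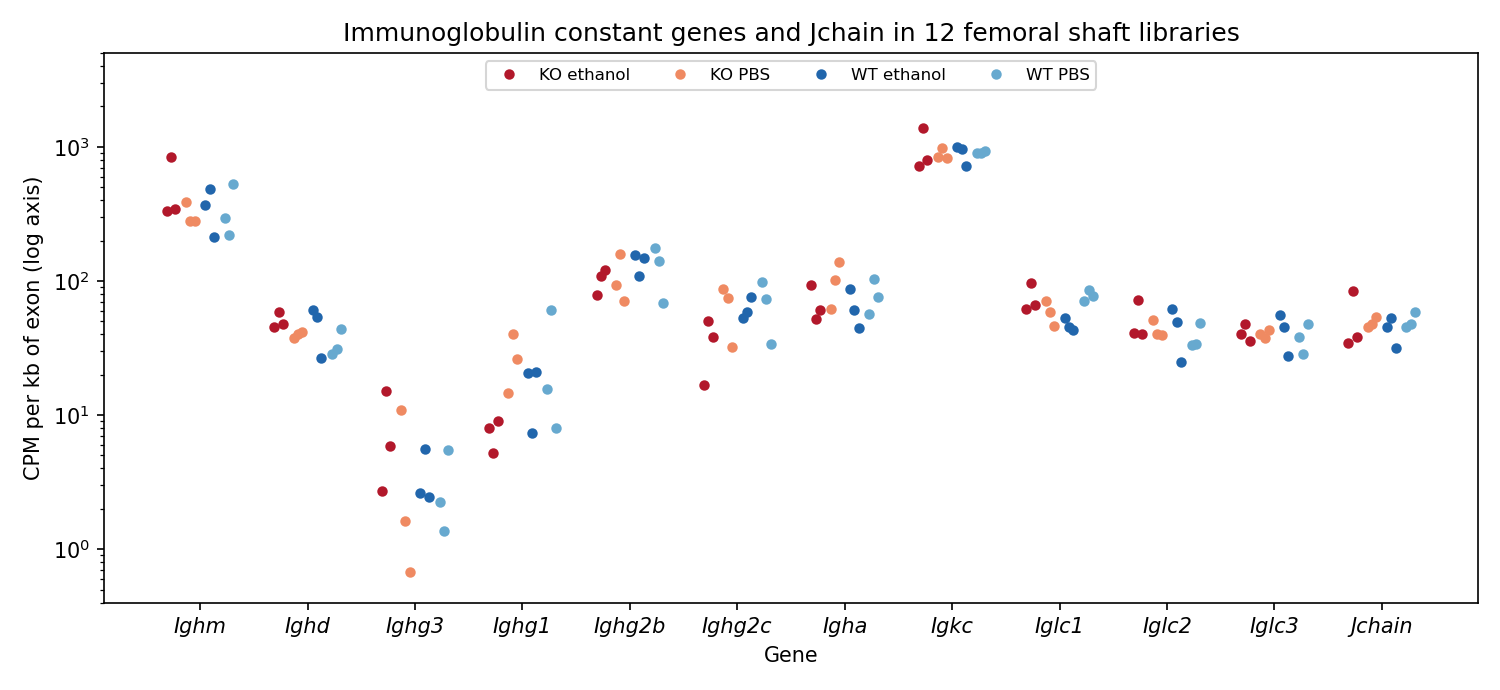
CPM per kb of exon (log axis) of the 11 constant genes and Jchain, with 1 point per library, coloured by group (KO ethanol, KO PBS, WT ethanol, WT PBS). Igkc lies highest and Ighg3 lowest, and the points of Ighg1 and Ighg3 spread most between libraries.

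Summed over the 11 constant genes, the level was 1671, 3090 and 1805 CPM in KO ethanol, 1920.0, 2094 and 1782 CPM in KO PBS, 2203, 2163 and 1558 CPM in WT ethanol, and 1956, 1934 and 2132 CPM in WT PBS libraries. All 4 groups overlapped, and KO ethanol library 5 stood above every other library. Group means were 2189 ± 783 CPM in KO ethanol, 1932 ± 156 CPM in KO PBS, 1975 ± 361 CPM in WT ethanol and 2007 ± 109 CPM in WT PBS (SD, n = 3 each). Without library 5 the KO ethanol mean was 1738 CPM, below the other 3 means. In bulk RNA, fewer cells of a type and less RNA per cell cannot be told apart.

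Library 5 was the highest library in constant and V sums, but not in the summed plasma cell and mature B cell lists. All members together took 0.462% of its counts, against 0.216% to 0.326% in the other 11 libraries. Its Ighm was 1586 CPM and its Jchain, which links IgM pentamers and IgA dimers, was 213 CPM, the highest of the 12 libraries in both. In the same library a list of 16 plasma cell genes summed to 674 CPM (548 to 703 CPM elsewhere) and a list of 15 mature B cell genes to 953 CPM (442 to 1081 CPM elsewhere). WT ethanol library 12 was lowest for the members together, at 2272 CPM, for the plasma list and for the mature B list, and it had the highest muscle sum; the part of that tissue in its values was not tested.

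**Figure D2:**
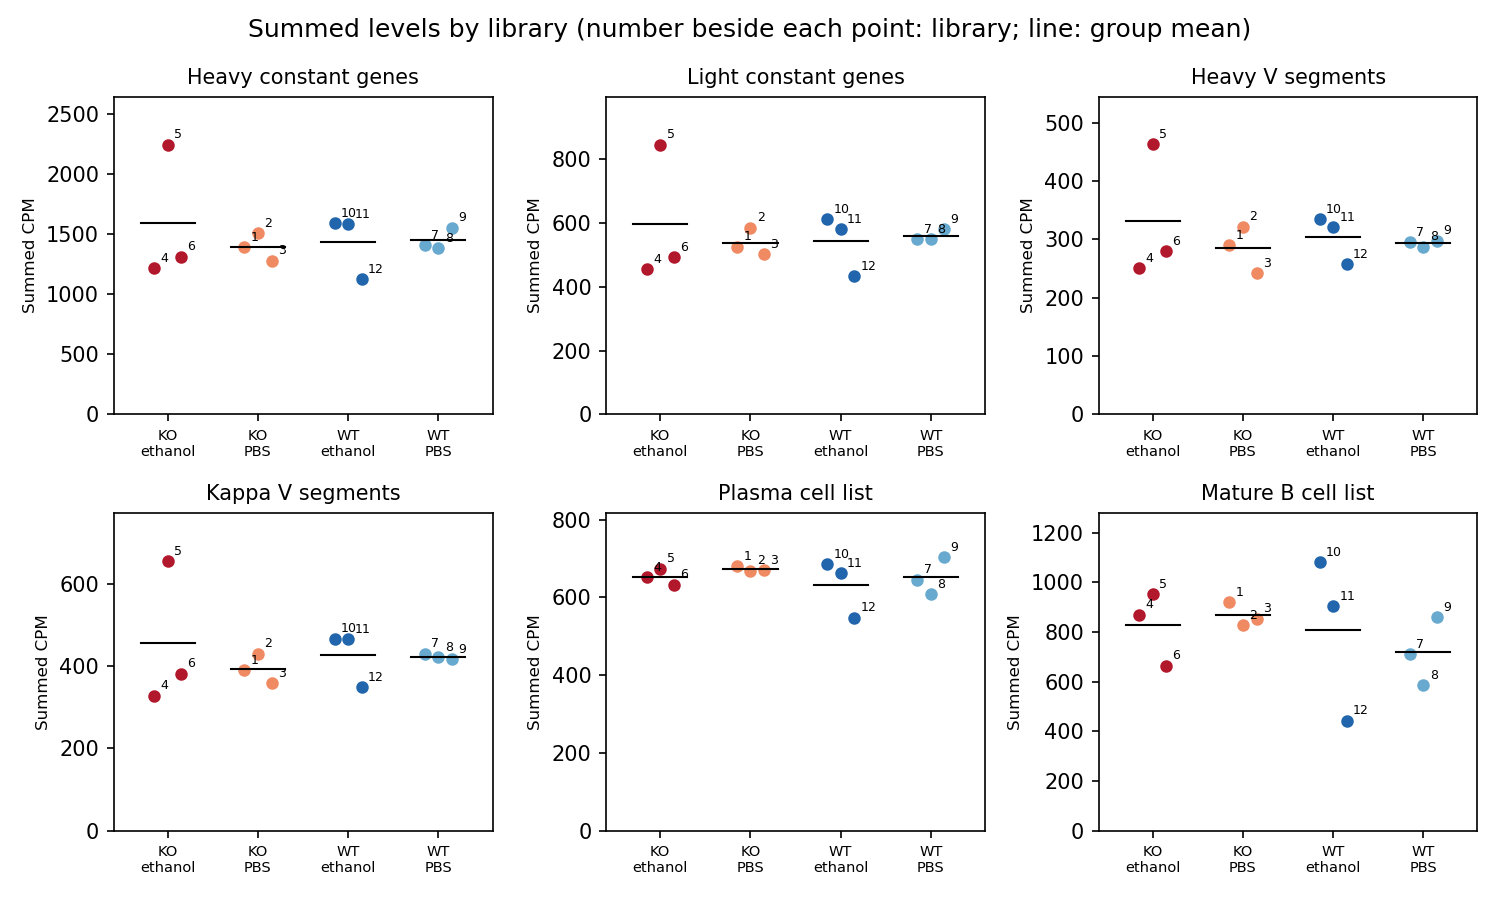
Summed CPM of heavy constant genes, light constant genes, heavy V segments, kappa V segments, a plasma cell list and a mature B cell list; each point is a library with its number, and lines are group means. Library 5 lies highest in the 4 immunoglobulin panels (2243, 847, 462 and 656 CPM) and inside the range of the others in both list panels.

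V and constant parts of a chain are spliced into 1 transcript, and their sums kept in narrow ratios. Heavy V CPM divided by heavy constant CPM was 0.189 to 0.229 over the 12 libraries, and kappa V CPM divided by Igkc CPM was 0.816 to 0.911. Iglv1 divided by Iglc1, a constant gene it can be joined to, was 0.888 to 1.30. These ratios varied by 1.21, 1.12 and 1.46 times between the highest and lowest library, while the members' summed CPM varied by 1.98 times.

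Ighm was the highest heavy constant gene per length in all 12 libraries. Per length, the IgG genes together exceeded it only in WT ethanol library 12 and WT PBS library 8. By share of heavy constant counts they also did so in KO PBS library 2 (41.8% against 35.2%) and WT PBS library 7 (45.9% against 39.5%). Per length, Ighm held 57.5%, 74.4% and 54.7% in KO ethanol, 55.7%, 40.4% and 47.4% in KO PBS, 49.4%, 62.1% and 40.0% in WT ethanol, and 43.9%, 34.8% and 69.1% in WT PBS libraries. The KO ethanol and KO PBS shares overlapped, and WT PBS held both the lowest share and one of the 2 highest. The 4 IgG genes together held 18.3%, 15.8% and 27.9% in KO ethanol, 29.8%, 39.3% and 22.1% in KO PBS, 30.9%, 23.3% and 46.5% in WT ethanol, and 43.4%, 43.9% and 15.1% in WT PBS libraries. These shares too overlapped between the gavages in each genotype.

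Lambda light chains were a minor part. Iglc1, Iglc2 and Iglc3 together held 16.5%, 13.5% and 15.2% of light constant CPM per kb in KO ethanol, 16.3%, 12.3% and 13.5% in KO PBS, 14.7%, 12.7% and 11.7% in WT ethanol, and 13.6%, 14.2% and 15.7% in WT PBS libraries. The 4 groups overlapped in this share. Of light V counts, lambda V segments held 9.05%, 6.74% and 7.64% in WT ethanol libraries. These lay below all values in WT PBS (10.01%, 11.56% and 10.83%) and KO ethanol (10.82%, 9.45% and 9.98%). KO PBS libraries had 11.45%, 7.835% and 7.725% and overlapped the other groups. The V share was not tested.

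The comparison of ethanol with PBS asked whether binge ethanol moved antibody gene RNA in bone of each genotype. Of the 178 members, 177 passed the filter on low counts; the other, Ighv3-4, was high in 1 library only. In the knockout, edgeR called 0 of 177 members at an adjusted p under 0.05, against 1.87% of all 18161 genes tested (0.964% higher and 0.903% lower). At an unadjusted p under 0.05 there were 16 of 177 members, a smaller share than the 16.4% of all genes. DESeq2 called 5 of 177, against 5.43% of all genes, and limma-voom 0, against 2.53%. The members' median log2 difference was 0.17, against 0.00 over all genes, and their median SE was 0.67, against 0.14. Their KO ethanol and KO PBS libraries did not overlap for 14 members (8 higher, 6 lower) or 7.91%, against 32.3% of all genes (16.3% higher, 16% lower).

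In wild type, 1 of 177 members was called, a lower one, against 1.26% of all genes tested (0.556% higher and 0.705% lower). DESeq2 called 6 of 177, against 4.03% of all genes, and limma-voom 1 of 177, against 0.76%. Without libraries 8, 9 and 12, with library 7 alone left for WT PBS, the log2 difference of Ighd was 1.02. The member called by edgeR was Ighv1-54 (ENSMUSG00000094787), a heavy V segment whose sequence is given above. It had 1.29, 0.423 and 0.369 CPM in WT ethanol and 2.98, 3.78 and 4.26 CPM in WT PBS libraries, from 28, 9 and 7 counts and 74, 76 and 92 counts. The WT PBS libraries lay above all 9 other libraries, since the segment had 0.552, 1.47 and 1.46 CPM in KO ethanol and 0.832, 0.972 and 1.28 CPM in KO PBS libraries, which overlapped. Its log2 CPM fell by 2.38 in wild type (SE 0.46), at an adjusted p of 0.0371. Leaving out 1 library ended the call for libraries 1, 2, 3, 5, 8, 9, 11 and 12 (adjusted p up to 0.0984). Without libraries 8, 9 and 12 the call was lost too, with library 7 alone left for WT PBS.

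Ighv1-63, the closest relative of Ighv1-54, was at 1.24, 0.845 and 0.474 CPM in WT ethanol and 0.322, 0.646 and 0.232 CPM in WT PBS libraries. Its WT PBS libraries were thus not high, and the WT groups overlapped. Its log2 difference in wild type was 1.12 (SE 0.51, adjusted p = 0.313), opposite in direction to Ighv1-54. Under PBS all its KO libraries lay above the WT libraries (1.96, SE 0.48, adjusted p = 0.605), whereas those of Ighv1-54 lay below them (-1.83, adjusted p = 0.605). How the 2 segments are linked was not tested. At an unadjusted p under 0.05 there were 14 of 177 members for ethanol in wild type, a smaller share than the 16% of all genes. The median log2 difference was -0.03 over the members and -0.02 over all genes. WT ethanol and WT PBS did not overlap for 12 members (3 higher, 9 lower) or 6.78%, against 16.4% of all genes (7.32% higher, 9.06% lower).

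Among the 9 lower ones were Iglc1, a lambda constant gene, and Iglv1, a lambda V segment that can be joined to it. Iglc1 had 23.8, 20.5 and 19.6 CPM in WT ethanol and 32.1, 39.0 and 34.9 CPM in WT PBS libraries, with a log2 difference of -0.73 (SE 0.19, adjusted p = 0.0898). Iglv1 had 31.0, 22.6 and 22.3 CPM in WT ethanol and 39.1, 45.6 and 37.6 CPM in WT PBS libraries, with a log2 difference of -0.69 (SE 0.24, adjusted p = 0.193). All WT ethanol values of both genes lay below the WT PBS values, but neither passed the test, except Iglc1 with DESeq2 (adjusted p = 0.00951). Without libraries 8, 9 and 12, with library 7 alone left for WT PBS, the log2 differences were -0.52 for Iglc1 and -0.53 for Iglv1.

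In the knockout, Iglc1 was at 28.0, 43.9 and 30.3 CPM with ethanol and 32.3, 26.6 and 20.9 CPM with PBS, which overlapped (log2 difference 0.35, adjusted p = 0.386). The difference between the 2 ethanol effects on Iglc1 was 1.08 (SE 0.26, adjusted p = 1). Iglc2 and Iglc3, the other lambda constant genes, had log2 differences of 0.24 and 0.16 with ethanol in wild type (adjusted p 0.794 and 0.800). Iglc2 and Iglc3 transcripts are 95.33% identical, so the split of reads between them is uncertain.

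Averaged over both genotypes, 2 of 177 members were called for ethanol, both lower, against 10.8% of all genes tested (5.02% higher and 5.81% lower). At an unadjusted p under 0.05 there were 16 of 177, a smaller share than the 26.2% of all genes. DESeq2 called 9 of 177, against 14% of all genes, and limma-voom 1 of 177, against 11%. With no filter on low counts edgeR called 0 members, and the share of all genes in that fit is not given here. Igkv12-89 (ENSMUSG00000076534), a kappa V segment at chr6:68834846-68835307, had 0.483, 1.13 and 0.876 CPM in KO ethanol and 5.06, 1.60 and 1.86 CPM in KO PBS libraries. It had 1.38, 1.17 and 0.685 CPM in WT ethanol and 1.81, 3.73 and 1.20 CPM in WT PBS libraries. The KO groups did not overlap, and WT ethanol library 10 overlapped WT PBS. It fell on average by 1.41 (SE 0.39, adjusted p = 0.0454). Ighv1-54 fell on average by 1.10 (SE 0.32, adjusted p = 0.0478), with a log2 difference of 0.17 in the knockout. Each of these averaged calls held when 2 of the 12 libraries were left out in turn (7 or 10 for Ighv1-54, 2 or 9 for Igkv12-89) and was lost for the other 10, with adjusted p up to 0.121 and 0.0985. Both were also lost with libraries 8, 9 and 12 left out together, where library 7 alone stood for WT PBS.

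Ighd encodes the IgD that mature B cells carry beside IgM. It had 86.8, 111 and 90.4 CPM in KO ethanol and 70.8, 75.8 and 79.1 CPM in KO PBS libraries. In wild type it had 115, 102 and 50.9 CPM with ethanol and 54.0, 59.3 and 84.0 CPM with PBS. The KO groups did not overlap, and in wild type ethanol library 12 lay below all PBS libraries while libraries 10 and 11 lay above them. The averaged log2 difference was 0.40 (SE 0.19, adjusted p = 0.234). Without library 12 it was 0.54 (adjusted p = 0.0184), and without libraries 8, 9 and 12 it was 0.69 (adjusted p = 0.00354). Within wild type the value was 0.44 (adjusted p = 0.476), and 1.02 without those 3 libraries (adjusted p = 0.0473), where library 7 alone stands for WT PBS and is assumed to vary like the others.

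**Figure D3:**
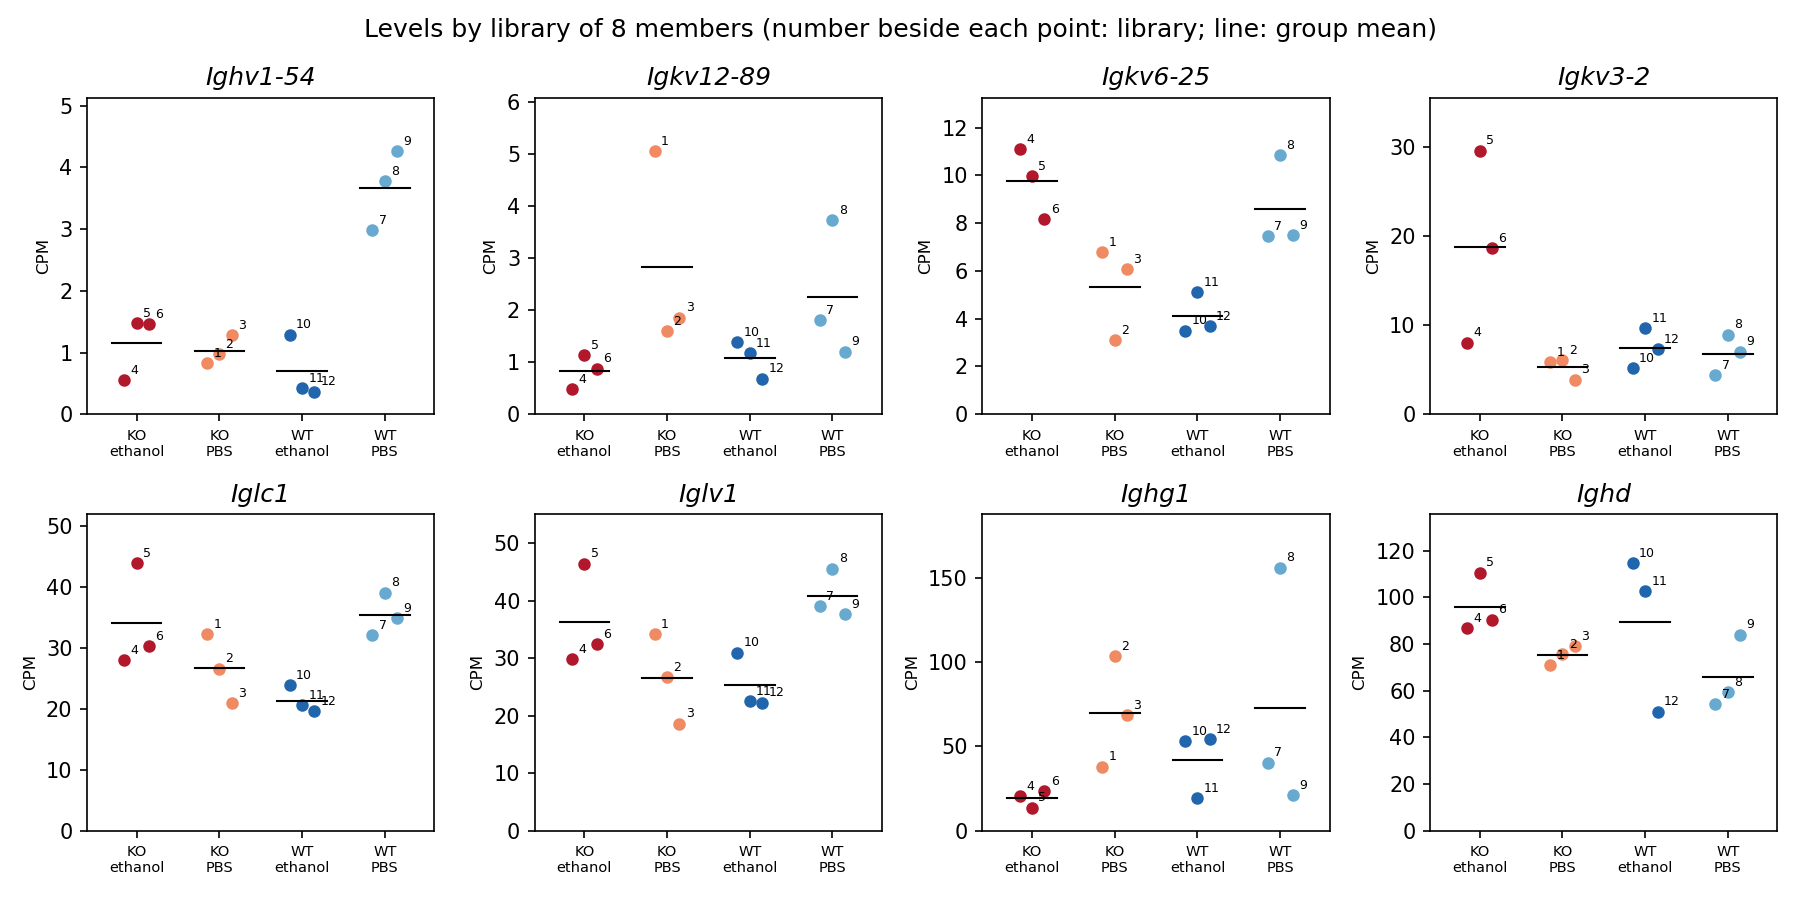
CPM of 8 members (Ighv1-54, Igkv12-89, Igkv6-25, Igkv3-2, Iglc1, Iglv1, Ighg1, Ighd) in the KO ethanol, KO PBS, WT ethanol and WT PBS libraries; points carry the library number and lines are group means. Ighv1-54 is highest in the 3 WT PBS libraries (2.98 to 4.26 CPM), and library 12 lies far below libraries 10 and 11 for Ighd.

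Ighg1, the IgG1 constant gene, showed the largest difference in size among the constant genes. It had 20.6, 13.5 and 23.2 CPM in KO ethanol and 38.0, 104 and 68.4 CPM in KO PBS libraries, and 52.9, 19.0 and 54.1 CPM in WT ethanol and 40.3, 156 and 20.9 CPM in WT PBS libraries. The KO groups did not overlap and the WT groups did. In the knockout the log2 difference was -1.87 (SE 0.77, adjusted p = 0.273), and on average -1.33 (SE 0.54, adjusted p = 0.158). Neither passed the test, and without WT PBS library 8 the average was -0.71 (adjusted p = 0.311).

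No constant gene passed the test for ethanol in the edgeR fit of all 12 libraries. Ighm had 623, 1586 and 645 CPM in KO ethanol and 725, 530.5 and 528 CPM in KO PBS libraries (log2 difference 0.68, SE 0.48, adjusted p = 0.557). It had 697, 913 and 399 CPM in WT ethanol and 556, 413 and 1000.0 CPM in WT PBS libraries (0.03, SE 0.47, adjusted p = 0.986). Both pairs of groups overlapped. Igkc had 384, 737 and 422 CPM in KO ethanol and 445, 517 and 439 CPM in KO PBS libraries, and 526, 511 and 385 CPM in WT ethanol and 480.0, 478 and 494 CPM in WT PBS libraries. Its log2 differences were 0.14 (SE 0.22) in the knockout and -0.03 (SE 0.22) in wild type, with adjusted p of 0.847 and 0.965. Igha, Ighg2b, Ighg2c, Ighg3 and Jchain had adjusted p of 0.475 or more for ethanol in either genotype.

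Some V segments chosen after their values were seen had groups that did not overlap but missed the threshold in edgeR. Igkv6-25, a kappa segment on the plus strand at chr6:70215400-70215957, had 11.1, 9.96 and 8.18 CPM in KO ethanol and 6.80, 3.09 and 6.08 CPM in KO PBS libraries. In wild type it had 3.50, 5.12 and 3.69 CPM with ethanol and 7.45, 10.8 and 7.50 CPM with PBS. Neither pair overlapped, and the directions were opposite. The log2 differences were 0.87 (SE 0.27, adjusted p = 0.131) in the knockout and -1.06 (SE 0.28, adjusted p = 0.0920) in wild type. The difference of these effects was 1.94 (SE 0.39), with an unadjusted p of 0.000398 and an adjusted p of 1 in edgeR. DESeq2 gave adjusted p of 0.0370 in the knockout, 0.0121 in wild type and 0.0364 for the difference of the effects. Without libraries 8, 9 and 12, with library 7 alone left for WT PBS, the edgeR log2 difference in wild type was -0.77.

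Igkv3-2 had 8.04, 29.6 and 18.7 CPM in KO ethanol and 5.86, 6.11 and 3.88 CPM in KO PBS libraries, with a log2 difference of 1.82 (SE 0.46, adjusted p = 0.0793). The groups did not overlap. Without library 4 the adjusted p was 0.0289, and DESeq2 gave 0.000463.

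Over all members, edgeR called 0 of 177 for the difference of the ethanol effects, as it called 0% of all genes tested. There were 20 of 177 members at an unadjusted p under 0.05, a larger share than the 1.98% of all genes (359 of 18161). DESeq2 called 1 member, Igkv6-25, which was the 1 gene it called among all 18161 (0.00551%), and limma-voom called 0 members. The median difference of the effects was 0.15 over the members, with a median SE of 0.96, and 0.02 over all genes.

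The comparison of KO with WT asked whether lack of catalase went with other antibody gene levels. Under ethanol, edgeR called 0 of 177 members, against 0.011% of all genes tested. At an unadjusted p under 0.05 there were 16 of 177 members, a larger share than the 5.78% of all genes. DESeq2 called 1 of 177 members (Igkv6-25), against 0.0771% of all genes, and limma-voom 0, against 0.011%. KO ethanol and WT ethanol did not overlap for 14 members (7 higher, 7 lower) or 7.91%, against 11.2% of all genes (7.12% higher, 4.04% lower). The median log2 difference was 0.09, against 0.00 over all genes. For Iglc1 all KO ethanol values lay above the WT ethanol values given before (log2 difference 0.67, SE 0.19, adjusted p = 0.820). For Igkv6-25 they did so as well (1.25, SE 0.28, adjusted p = 0.820). Ighg2c, the IgG2c constant gene, had 22.1, 66.2 and 50.7 CPM in KO ethanol and 70.5, 78.2 and 100.3 CPM in WT ethanol libraries (-0.84, SE 0.53, adjusted p = 0.820). Its groups did not overlap.

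Under PBS, edgeR again called 0 of 177 members, against 0.011% of all genes tested. At an unadjusted p under 0.05 there were 18 of 177 members, a larger share than the 7.43% of all genes. DESeq2 and limma-voom called 0 each, against 0.011% of all genes by either. KO PBS and WT PBS did not overlap for 14 members (3 higher, 11 lower) or 7.91%, against 14.1% of all genes (8.98% higher, 5.16% lower). The median log2 difference was -0.20, against -0.01 over all genes. No constant gene was among the 14. Averaged over the gavages, edgeR, DESeq2 and limma-voom called 0 of 177 members, against 0.011%, 1.18% and 0.011% of all genes. In edgeR, 14 of 177 had an unadjusted p under 0.05, a smaller share than the 14.3% of all genes. Comparisons that share libraries are not independent of each other.

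**Figure D4:**
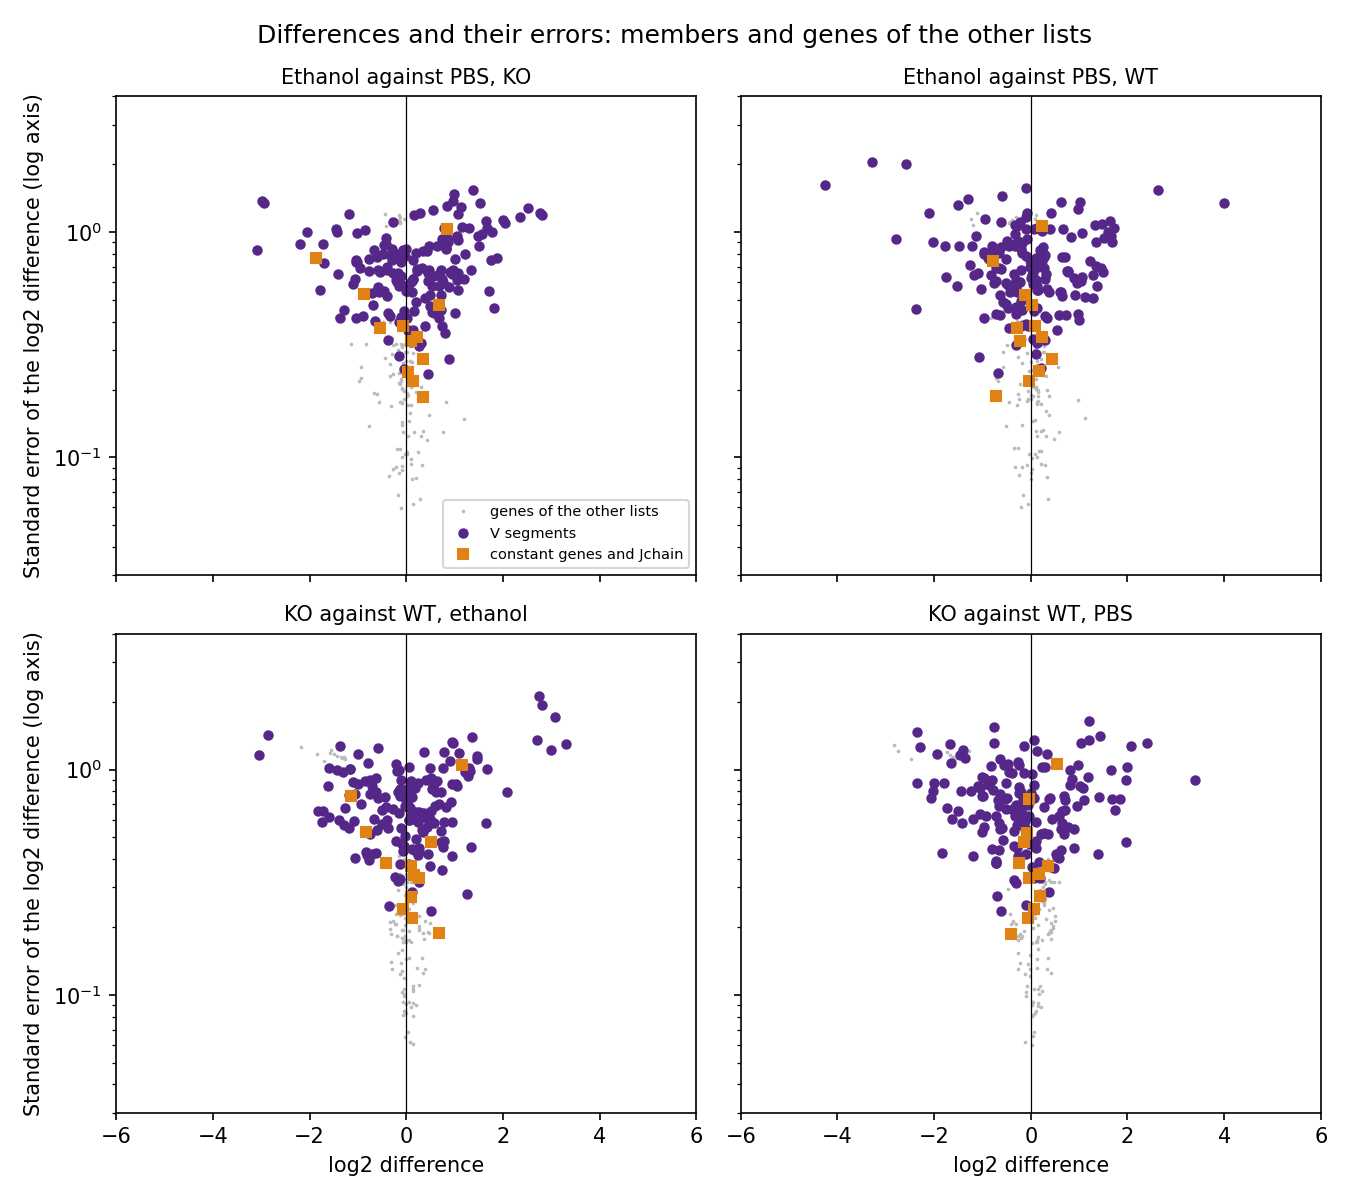
Log2 difference (x axis) against its SE (y axis, log) in 4 comparisons, for V segments, for constant genes with Jchain, and for genes of the other lists. Most V segments lie higher than the other genes, with median SEs of 0.68 and 0.70 for ethanol in the knockout and in wild type. The skeletal muscle genes among the other lists are the exception, with SEs above these medians (Acta1 1.13 in both).

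V segments spread more between replicate pools than other genes of like level. The SD of log2 CPM within groups had a median of 0.746 over the 165 V segments tested (0.223 to 1.6) and 0.468 over the constant genes and Jchain. Over all genes tested it was 0.158, and over the 10582 genes within the V segments' range of mean CPM it was 0.194. Between the highest and lowest library, CPM of the 159 V segments with a count in every library differed by a median of 8.59 times.

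Many segments shared the signal in each library, and a few led in several libraries. The mean CPM of single V segments ran from 0.438 to 32.2, with a median of 3.21, and the 12 highest held 27.5% of the V total. These were Iglv1, Igkv1-117, Igkv10-96, Ighv1-26, Igkv19-93, Igkv6-23, Ighv1-64, Igkv5-43, Igkv1-110, Igkv6-15, Ighv3-6 and Igkv8-30. None of these 12 was called in any of the 7 comparisons. Ighv1-26 led the heavy V segments in KO ethanol library 5, WT ethanol libraries 10 and 11, and WT PBS libraries 8 and 9, with 6.42% to 10.8% of heavy V counts. Ighv1-64 led in KO PBS library 2 (13.6%) and WT PBS library 7 (10.1%).

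Among kappa segments, Igkv10-96 led in KO ethanol library 4 (14.5% of kappa V counts), KO PBS library 2 (13.3%) and WT ethanol library 10 (5.58%). Igkv1-117 led in WT PBS libraries 7 (13.9%) and 8 (9.85%), with 59.9 and 41.5 CPM, and had only 9.59 CPM in WT PBS library 9. In the other groups Igkv1-117 had 25.2, 40.0 and 16.8 CPM in KO ethanol, 13.3, 23.8 and 11.3 CPM in KO PBS, and 24.7, 29.4 and 24.1 CPM in WT ethanol libraries. All groups overlapped, and replicate pools of 1 group differed by up to 6.25 times.

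How many segments shared the signal was summarised by the inverse Simpson number, the count of equally abundant segments that would give the same concentration. For heavy V segments it was 37.2, 26.6 and 33.2 in KO ethanol, 33.3, 23.5 and 38.4 in KO PBS, 42.0, 35.3 and 28.3 in WT ethanol, and 32.1, 43.5 and 36.8 in WT PBS libraries. For kappa V segments it was 23.9, 32.5 and 35.0 in KO ethanol, 34.1, 21.1 and 27.1 in KO PBS, 38.1, 32.8 and 28.6 in WT ethanol, and 23.9, 34.6 and 36.2 in WT PBS libraries. KO PBS library 2 was the most concentrated in both loci, and the groups overlapped in both.

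Single-library peaks were V segments with at least 50 counts in their highest library and at least 3 times the CPM of the second-highest one. There were 10 among 166 V segments, or 6.02%, of which 5 were heavy and 5 kappa: 3 in KO ethanol, 3 in KO PBS, 2 in WT ethanol and 2 in WT PBS libraries. They are described with no test, since the rule picks them for their height. Just outside the ratio lay Ighv1-59 (2.96 times), Ighv1-82 (2.95) and Ighv1-61 (2.91), and just inside it Igkv14-100 (3.04).

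The sharpest was Ighv3-4 in KO ethanol library 4. It had 523 counts there (18.1 CPM), 1 count each in KO ethanol libraries 5 and 6, and at most 10 counts in any library of the other 3 groups. It was 36.3 times the second-highest library and led the heavy V segments of library 4, with 7.22% of their counts. Ighv3-6, the relative printed with it, had 8.11 CPM in that library, inside its range of 7.004 to 25.6 CPM in all 12. The peak was thus not shared by the closest segment.

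Library 6, also KO ethanol, showed a different picture. Igkv8-16 had 10.2 CPM there, 4.76 times the second-highest library (KO PBS library 1), and Igkv8-19 had 36.5 CPM there, the highest kappa V segment of that library. Igkv8-19 was at 0.632 to 15.7 CPM elsewhere, with its second-highest value in WT PBS library 7, so it was no peak by the rule. Igkv8-28, far closer to Igkv8-19 in sequence than Igkv8-16 is, had 2.52 CPM in library 6, within its range of 1.38 to 6.64 CPM over the 12 libraries. Ighv1-82 was the leading heavy V segment of library 6, with 27.3 CPM and 9.75% of heavy V counts.

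KO PBS library 2 held 2 peaks, 1 in each locus. Igkv4-59 had 46.9 CPM there, 3.29 times the next library, and Ighv1-15 had 25.8 CPM, 3.10 times the next. Its leading segments were Ighv1-64 (43.6 CPM) and Igkv10-96 (57.3 CPM), each at its highest in that library. KO PBS library 3 held a peak of Ighv1-74 (16.8 CPM, 3.92 times the next). Which heavy and light segments belong to the same cells cannot be read from bulk counts.

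The other peaks were Igkv2-137 in KO ethanol library 5 (38.9 CPM, 5.08 times the next), Ighv2-9-1 in WT PBS library 7 (21.6 CPM, 5.42 times) and Ighv1-31 in WT PBS library 8 (2.88 CPM, 3.67 times). WT ethanol library 10 held Igkv14-100 (14.2 CPM) and Igkv4-86 (8.94 CPM, 3.28 times). KO PBS library 1, WT ethanol libraries 11 and 12, and WT PBS library 9 held none. Library 5 was the highest library for 37 of 166 V segments, and 1 of these, Igkv2-137, was a peak. Its heavy V counts were nonetheless among the more concentrated, with 10.8% in Ighv1-26 and 50.3% in the 10 most abundant segments.

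**Figure D5:**
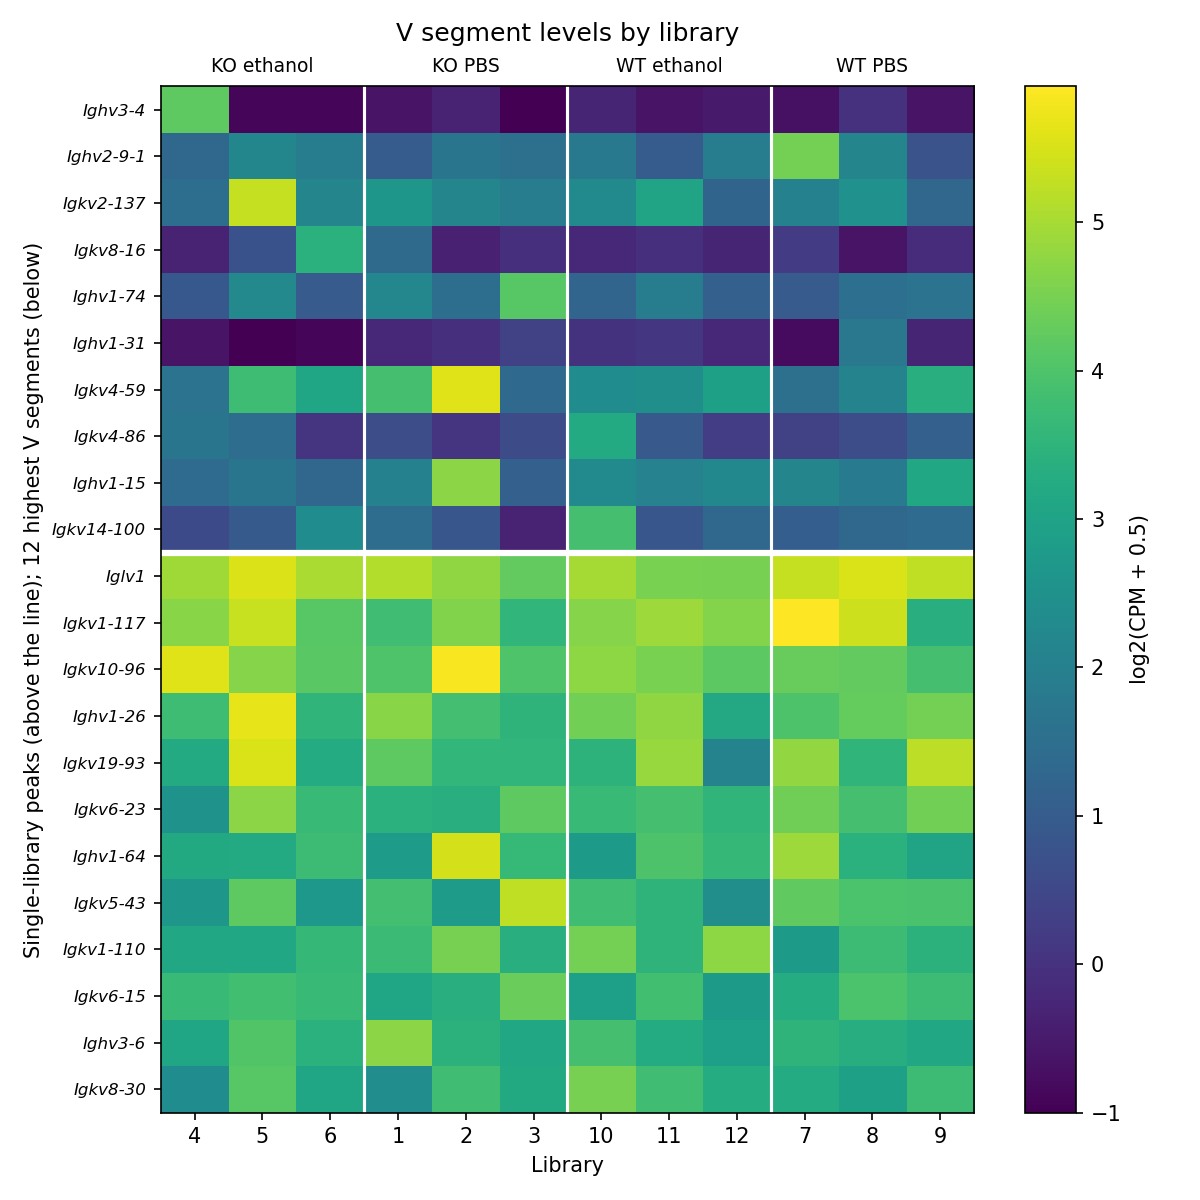
Levels as log2(CPM + 0.5) of the 10 single-library peaks (above the white line) and the 12 V segments with the highest mean CPM (below it), by library and group. Each peak is brightest in 1 library of its row, such as Ighv3-4 in library 4 (18.1 CPM), whereas the high segments are bright in most libraries. The peak of Ighv1-31 stays dim (2.88 CPM in library 8), and Igkv4-59 also has 14.25 CPM in library 1.

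Of 146 V segments whose closest relative was also a member, 21 had their highest library in common with it. Each library other than 5 was the highest for 5 to 19 of the 166 V segments.

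Genes of antibody-secreting and B cells were read from lists beside the members. Averaged over genotypes, 4 of 15 tested plasma cell genes passed the test for ethanol: 3 fell and 1 rose, against 10.8% of all genes tested. Fkbp11, a folding enzyme of the secretory pathway, had 3.28, 4.79 and 3.18 CPM in KO ethanol and 7.34, 7.54 and 6.57 CPM in KO PBS libraries. In wild type it had 5.03, 3.33 and 4.63 CPM with ethanol and 5.07, 7.91 and 8.38 CPM with PBS. The ethanol values lay below the PBS values in both genotypes, and the gene fell on average by 0.82 (SE 0.16, adjusted p = 0.00853). Ell2, an elongation factor used in antibody secretion, fell by 0.30 (adjusted p = 0.00914) and Txndc5, a disulfide isomerase, by 0.17 (adjusted p = 0.0490). Tnfrsf13b, the receptor TACI, rose by 0.27 (adjusted p = 0.0136). Ell2 and Tnfrsf13b kept their calls without libraries 8, 9 and 12, whereas Fkbp11 (-0.60) and Txndc5 (-0.13) did not. Library 7 alone stood for WT PBS in that fit.

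Bone-forming cells also use the secretory pathway, and their RNA moved with the same gavage. A list of 11 osteoblast and osteocyte genes summed to 11970, 16070 and 7506 CPM in KO ethanol and 21220, 23190 and 24880 CPM in KO PBS libraries. It summed to 14040, 13610 and 9184 CPM in WT ethanol and 17000.0, 16280 and 19360 CPM in WT PBS libraries. Of the 11 genes, 6 were called lower on average, against 5.81% of all genes. Without libraries 8, 9 and 12, where library 7 alone stood for WT PBS, only Phospho1 of these kept its call (-0.50). It encodes a phosphatase of mineralization. The sums did not overlap between ethanol and PBS in either genotype. Its part in the plasma cell list was not tested. Of 15 mature B cell genes, edgeR called 0 in each of the 7 comparisons, and 0 had an unadjusted p under 0.05. The calls of the other tools were not read for this list. Without libraries 8, 9 and 12, 3 of the 15 were called higher for the averaged ethanol effect, as Ighd was: Cd22 by 0.41 (adjusted p = 0.0165), Fcmr by 0.35 (adjusted p = 0.0336) and Tnfrsf13c by 0.43 (adjusted p = 0.0436), a B cell inhibitory receptor, the IgM Fc receptor and the BAFF receptor. The mature B list summed to 869, 953 and 664 CPM in KO ethanol, 920.1, 827 and 854 CPM in KO PBS, 1081, 905 and 442 CPM in WT ethanol, and 711, 586 and 860 CPM in WT PBS libraries. All groups overlapped.

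Genes for antibody transport and Fc receptors were read in the same way. Of 8 tested, 3 were called higher with ethanol on average, against 5.02% of all genes. They were Fcgr4 (0.67, adjusted p = 0.00180), Fcgr3 (0.32, adjusted p = 0.0413) and Fcgr2b (0.31, adjusted p = 0.0139). These are IgG receptors of myeloid cells and, for Fcgr2b, of B cells. Fcgr4 had 24.9, 27.8 and 30.7 CPM in KO ethanol and 16.6, 16.7 and 16.1 CPM in KO PBS libraries, with no overlap, and rose in the knockout by 0.76 (adjusted p = 0.0169). All 3 kept these averaged calls without libraries 8, 9 and 12. Of 12 precursor B cell genes, 1 was called, against 10.8% of all genes: Cd93, which rose on average by 0.32 (adjusted p = 0.00245) and is expressed by endothelial and myeloid cells too. The list's median log2 difference was -0.23, against -0.01 over all genes, and 8 of the 12 had a value below 0. Among these were Rag2 (-0.55, adjusted p = 0.203) and Rag1 (-0.39, adjusted p = 0.449), which cut DNA for V joining. Vpreb1 (-0.22, adjusted p = 0.636) and Igll1 (-0.17, adjusted p = 0.706), which form the surrogate light chain, were others. None of the 8 was called. Besides Cd93, the genes above 0 were Il7r (0.06), Erg (0.06) and Ebf1 (0.02), none of them called.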

How the data were processed

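Bulk RNA sequencing of femoral shafts gave 12 libraries. The authors deposited raw read counts per Ensembl gene as whole numbers, per the file headers. Named in the submitters' processing notes, with no order, are the build GRCm38, featureCounts and Subread 1.5.2, STAR 2.5.2b and Trimmomatic 0.36. How reads that map to several places were handled, the strand setting and the annotation used were not given in the sources used here. The authors also deposited a normalized signal, equal to the count divided by 1 factor per library (relative spread of the ratio at most 9.88e-10). It was used only for gene names and for choosing the members.

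Low counts were removed by filterByExpr (at least 10 in enough libraries and 15 in all), which left 18161 genes, and TMM factors (0.908 to 1.05) set the library scale. One edgeR 4.0.16 quasi-likelihood model (R 4.3.3, 8 residual degrees of freedom) held 1 coefficient per group. Unless another tool is named, a printed adjusted p is from this edgeR fit and Benjamini-Hochberg adjusted over all genes tested, and called genes have one under 0.05. The standard error (SE) is that of the log2 difference. The fit was tested on simulated data. CPM is the count relative to the scaled library total, in the usual unit, and CPM per kb divides it by the union of the gene's exons in GENCODE M21 on GRCm38. Sequences are coding parts of GENCODE M21 transcripts.

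Named members were all constant genes and Jchain, the V segments called in a comparison, the 12 V segments with the highest mean CPM, and the single-library peaks. Other members are named where said, after their values were seen. The members, lists and this rule were chosen with earlier results of these data known. Alternatives were RLE factors, other filters on low counts, DESeq2 1.42.0, limma-voom (limma 3.58.1), a fit of only the groups compared, library sizes without immunoglobulin rows, and leaving out libraries. One list of other genes is not reported here.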

Additional observations from a re-analysis of the deposited data

How the results depend on the processing

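No paired analysis was possible because the library numbers run from 1 to 12 and no 2 groups share one. DESeq2 called more members than edgeR in 5 of 7 comparisons, and more of all genes too. It called 5 of 177 members for ethanol in the knockout, against 5.43% of all genes, and 6 in wild type, against 4.03%. For the averaged ethanol effect it called 9, against 14%. It called 1 (Igkv6-25) each for the knockout effect under ethanol, against 0.0771%, and for the difference of the ethanol effects, against 0.00551%. With only the groups compared in the fit, 1 member was called for ethanol in the knockout (Ighv10-1). Without libraries 8, 9 and 12, 1 was called there (Ighv1-31), and Ighd was called for ethanol in wild type. With no filter on low counts 0 members were called for the averaged ethanol effect, and with limma-voom 1 was. Leaving out each library in turn gave 0 to 1 members for ethanol in the knockout, 0 to 2 for ethanol in wild type and 0 to 3 for the averaged ethanol effect, against 0 for each knockout effect and for the difference of the ethanol effects. Except for DESeq2 and limma-voom, the share of all genes called in these fits is not given here. Whether the members followed the call rate of all genes in them was not tested, nor were the causes.

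The number of single-library peaks was 10 at a ratio of 3, 44 at a ratio of 2 and 3 at a ratio of 5. A minimum of 20 counts gave 10, a minimum of 200 counts gave 8, and RLE factors gave 10. No listed log2 difference of a single member turned its direction under the alternatives run. The median log2 difference over the members did turn, for example from -0.12 to 0.33 for ethanol in the knockout as each library was left out. The group means of summed constant gene CPM moved by less than 1 SD. Leaving out library 5 gave 1738 CPM for the knockout ethanol group, against 2189 CPM with it.

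Depth limits the low segments: Ighv1-54 had 7 to 92 counts per library and Igkv12-89 had 13 to 140. The number of libraries, 3 a group, limits all tests.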

Other observations

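The V segments were also read by family and by place in the locus, as shares of counts with no test. The Ighv1 family, with 45 of the 86 heavy V segments, held 48.0%, 61.7% and 54.7% of heavy V counts in the knockout ethanol libraries. It held 55.1%, 55.3% and 59.0% in the knockout PBS libraries, 50.1%, 64.7% and 54.3% in the wild-type ethanol libraries, and 54.8%, 55.1% and 57.3% in the wild-type PBS libraries. The groups overlapped, and the lowest and highest shares were both in ethanol libraries (4 and 11).

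Among kappa families, Igkv4, with 18 segments, held 11.5% to 22.3% of kappa V counts. Igkv10, with 2 segments, held 15.1% in knockout ethanol library 4 and 15.3% in knockout PBS library 2, against 4.50% to 8.57% in the other 10 libraries. Igkv13, also with 2 segments, held 8.34% in knockout PBS library 3 and at most 2.40% elsewhere.

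The 43 heavy V segments farther from the constant genes, all of the Ighv1 or Ighv8 family, held 45.6% to 61.2% of heavy V counts per library. Group means were 54.2% ± 7.93 with ethanol in the knockout, 54.8% ± 4.83 with PBS in the knockout, 53.5% ± 5.20 with ethanol in wild type and 53.2% ± 3.76 with PBS in wild type (SD, n = 3 each). The differences between group means were smaller than these SDs.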
